A study of Mus musculus with 4 samples.

Results

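The 34 genes described here encode the nucleolar factors that make ribosomes, together with subunits of RNA polymerase I and its factor UBTF. They were taken by symbol from a list of named genes, and all 34 were found among the 53379 Ensembl gene identifiers of the count tables. All 34 also passed the filter on low counts, which left 13792 genes in the test. Their RNA was measured by bulk RNA-seq in cancer cells sorted from subcutaneous tumors of MC38-GFP+, a mouse colon adenocarcinoma line that carries a fluorescent marker, grown in C57BL/6 mice after an inoculum of 50000 cells. Every mouse had been given anti-PD-1, an antibody against an inhibitory receptor of T cells, at a sub-optimal dose of 100 µg on day 12, day 15, day 18 and day 22. The groups differ only in the label for response to this treatment, with 2 libraries labelled non-responder and 2 labelled responder, and a group without antibody is not analysed here. The labels do not say how response was scored, whether each library stands for its own mouse, or whether tumors were pooled, so the spread behind each p-value is that of these libraries and could be technical.

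Total counts were 18447041 to 21754063 per library, of which the 34 genes took 0.609% to 0.832%. Mitochondrially encoded genes took 3.07% to 5.61%. Of 10 markers of colon epithelium 1 passed the filter, the cadherin gene Cdh1, and Krt20 was at 0 in every library, so markers of the epithelium that the adenocarcinoma line came from were at or near 0 in these cells. Marker transcripts of leukocytes, macrophages and fibroblasts were counted in all libraries. Which cells they came from was not tested. Their levels are given below, beside the summed level of the 34 genes.

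Ribosomes are built in the nucleolus. RNA polymerase I, recruited to ribosomal DNA by UBTF and its partners, makes a long precursor RNA. Small nucleolar RNAs guide its modification by box C/D particles, which methylate the ribose, and by box H/ACA particles, which convert uridine to pseudouridine. The small subunit processome and the large subunit factors then fold, cut and export the subunits. Dividing tumor cells make ribosomes at a high rate, and the transcription factor MYC, which binds the E-box CACGTG, is a known activator of many of these genes.

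Promoter sequences, from RefSeq on GRCm38.p6, matched 29 of the 34 genes and ran from 250 bases before to 50 bases after the start site. They were searched on both strands for CACGTG, which reads the same on either, and a gene with several promoters counts once if any holds it. It occurred in 6 of the 29 genes (20.7%), against 8.1% of all 27025 genes in the promoter table and 11.6% of the 9831 of these that were tested. The windows around these E-boxes are shown because the 6 genes differ in where the motif lies, and capitals mark the motif:
Nop2, chr6:125131811-125131840, + strand: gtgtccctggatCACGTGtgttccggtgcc
Pes1, chr11:3963965-3963994, + strand: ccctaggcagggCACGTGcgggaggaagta
Wdr43, chr17:71616220-71616249, + strand: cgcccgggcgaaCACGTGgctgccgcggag
Tsr1, chr11:74898092-74898121, + strand: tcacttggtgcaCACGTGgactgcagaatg
Utp20, chr10:88826765-88826789, - strand: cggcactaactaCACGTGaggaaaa
Mybbp1a, chr11:72441355-72441376, + strand: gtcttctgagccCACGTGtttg

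In Nop2 alone the motif lay before the start site, beginning 60 bases upstream, and in the other 5 it began between 3 and 41 bases into the transcribed part. The Nop2 promoter also held CCGGAAG, the core that ETS factors bind, beginning 38 bases upstream and not overlapping the E-box. The 120 bases before its start site, chr6:125131763-125131882 on the + strand, show both motifs in capitals:
Nop2 upstream: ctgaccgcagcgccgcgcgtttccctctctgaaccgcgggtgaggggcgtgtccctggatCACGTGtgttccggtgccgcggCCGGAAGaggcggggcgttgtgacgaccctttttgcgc

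CCGGAAG or its reverse complement occurred in 8 of the 29 genes (27.6%, against 20.5% of tested genes), and the GC-box core GGGCGG in 22 of 29 (75.9%, against 68.9%). CCAAT was found in 10 of 29 (34.5%, against 43.7%) and TATAAA in 2 of 29 (6.9%, against 8.8%). These matches describe letters in this window and not binding.

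Several of the genes are themselves hosts of small nucleolar RNAs, which are released from their introns. In the annotation 11 named snoRNAs lie within 6 of the 34 genes, on the same strand: Gnl3, Ncl, Nop56, Nop58, Tsr1 and Wdr43. Nop56, whose protein is a core of the box C/D particle, holds Snord57 (chr2:130278016-130278087) and Snord110 (chr2:130275506-130275573), both box C/D RNAs. They are printed to show this arrangement, with the core of box C and box D in capitals:
Snord57: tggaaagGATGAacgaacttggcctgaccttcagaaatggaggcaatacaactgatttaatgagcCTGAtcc
Snord110: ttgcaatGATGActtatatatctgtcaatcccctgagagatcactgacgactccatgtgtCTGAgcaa

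These libraries of polyadenylated RNA scarcely saw the snoRNAs themselves, with at most 10 reads for any of the 11 in a library. The 4 that lie wholly within annotated exons of their host, Snord57, Snord19, Snord69 and Snora75, were at 0 in all 4 libraries. A read there lies over both genes and is assigned to neither. The snoRNAs outside host exons had at most 10 reads too, and the part of this overlap in the zeros was not tested. Nop56 shares 328 of its exonic bases (8.0%) with 4 small genes on its strand, Snord57 among them.

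Expression is given as CPM, counts scaled to a library total of 1000000 with TMM factors. Set side by side, the 34 genes were slightly higher in responder than in non-responder tumor cells, and no single gene passed the test. Of the 34, 31 had a positive log2 fold change (responder relative to non-responder), where 48.9% of all tested genes did, and their median log2 fold change was 0.28 (1.21-fold) beside -0.007 for all genes tested. Both responder libraries lay above both non-responder libraries in 24 of the 34, against 18.8% of all tested genes, and in 0 of them did both lie below, against 17.7%. By edgeR's quasi-likelihood test, adjusted by Benjamini-Hochberg over all genes, 0 of the 34 were called at an adjusted p of 0.05, and 0% of all genes were called; the smallest adjusted p among the 34 was 0.631. At an unadjusted p of 0.05, 7 were higher and 0 lower, with 2.57% and 3.63% of all tested genes. DESeq2 called 0.45% of genes and 0 of the 34. An exact permutation test of 2 libraries against 2 cannot go below a two-sided p of 0.333. In bulk RNA, fewer cells of a type and less RNA per cell cannot be told apart.

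**Figure D1:**
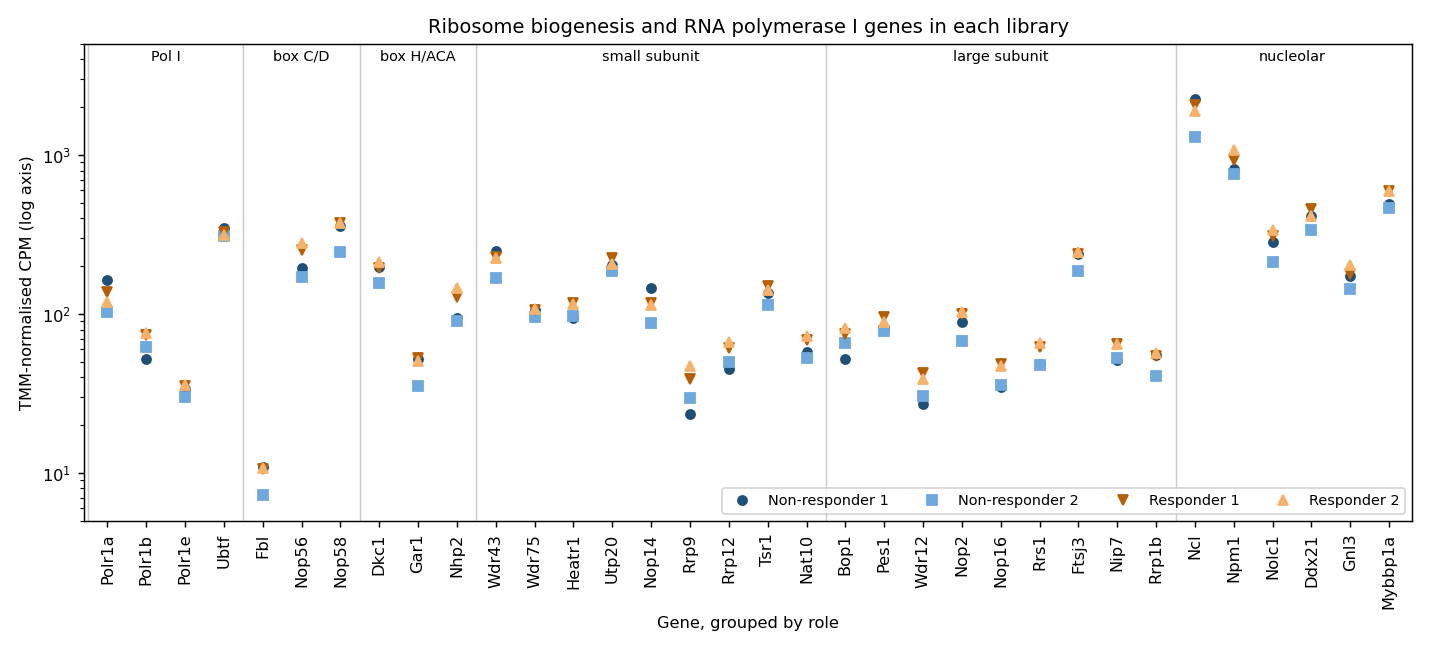
TMM-normalised CPM (log axis) of the 34 genes, grouped by role; each point is 1 library, 2 non-responder (blue) and 2 responder (orange). Responder points lie above both non-responder points in 24 genes, and non-responder replicate 2 is the lowest library in 26.

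RNA polymerase I itself was the role with the smallest difference. Of its 4 genes 2 were higher and 2 lower, with a median log2 fold change of 0.06. Polr1a, the largest catalytic subunit, had 164 and 103 CPM among non-responders (replicates 1 and 2, here and below) and 138 and 119 CPM among responders. The responder values lay between the non-responder values (log2 fold change -0.05, SE 0.24, adjusted p = 0.981). Leaving out non-responder replicate 1 gave 0.33 and leaving out its partner gave -0.35, so the direction rested on which of these was kept; leaving out responder replicate 2 gave 0.05 and its partner -0.17. Polr1b, the second largest subunit, had 52.3 and 62.5 CPM against 74.3 and 76.0 CPM. Both responder libraries were higher (log2 fold change 0.39, SE 0.17, adjusted p = 0.796).

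Ubtf, the factor that binds ribosomal DNA along the promoter and gene body, had 348 and 308 against 328 and 315 CPM. Its groups overlapped, and its log2 fold change of -0.03 (SE 0.19, adjusted p = 0.985) was 0.07 without non-responder replicate 1 and 0.003 when libraries were scaled by total count alone. Polr1e, which pairs with Polr1g in a dimer that helps initiation, had 8.73 and 7.71 against 9.03 and 9.22 RPKM (CPM per kilobase of annotated exon), wholly above by a log2 fold change of 0.15. Leaving out non-responder replicate 2 gave 0.06 and its partner 0.25. Among 11 further polymerase I subunits and initiation factors, all tested, 9 were higher at a median of 0.12. Responder libraries were wholly above in 5 of the 11 and wholly below in 1, against 18.8% and 17.7% of all tested genes. The 1 below was Taf1b, with 42.5 and 40.8 against 36.2 and 34.3 CPM (log2 fold change -0.24, SE 0.16). Of the 11 the one of smallest p was Polr1g itself, with 28.7 and 28.1 against 35.5 and 42.9 CPM (log2 fold change 0.47, SE 0.18, adjusted p = 0.762).

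Among the box C/D proteins, Nop56 differed most. It had 195 and 171 CPM among non-responders and 255 and 280 CPM among responders, or 183 ± 17.3 against 267 ± 18.0 (mean ± SD, n = 2). Responder libraries were wholly above, by 1.46-fold (log2 fold change 0.55, SE 0.19, adjusted p = 0.732), and the value stayed between 0.45 and 0.65 with any 1 library left out. Nop58, the other scaffold protein of the particle, had 360 and 245 against 374 and 373 CPM. Non-responder replicate 1 was nearly level with the responders and replicate 2 was well below them, and the log2 fold change of 0.31 (SE 0.23, adjusted p = 0.867) was 0.05 without non-responder replicate 2 and 0.61 without its partner.

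Fbl, the methyltransferase of the particle, was counted at 10.96 and 7.31 against 10.6 and 10.8 CPM. Per length of annotated exon its mean level was 2.36 RPKM, while those of Nop56 and Nop58 were 54.9 and 31.4 RPKM. Of the 50-base stretches of its longest coding transcript, 73.0% also occur in transcripts of other annotated genes, among them Gm5812 and Gm6211, and reads that match several places were not counted; how many Fbl reads this removed was not tested. Its log2 fold change of 0.23 (SE 0.27) was -0.03 without non-responder replicate 2 and 0.56 without its partner. The same share was 40.9% for Npm1, 37.6% for Nop56, 31.1% for Tsr1, whose stretches are shared with Srr and Gm20426, and 22.6% for Pes1. It was at most 7.28% for the other 29 genes and 0 for 13 of them. The levels of Fbl, Npm1, Nop56 and Pes1 are therefore less certain than those of the 29. Stretches were matched on either strand, and Tsr1 shares 0 exonic bases with other genes on its own strand. Whether Tsr1 reads match several places was not tested.

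All 3 box H/ACA genes were higher, at a median log2 fold change of 0.25. Nhp2, a small RNA-binding protein of the particle, had 94.7 and 90.3 CPM among non-responders and 129 and 145 CPM among responders. It was wholly higher in responders, 1.48-fold (log2 fold change 0.57, SE 0.17, adjusted p = 0.669). Dkc1, the pseudouridine synthase, had 197 and 156 against 195 and 213 CPM. Here responder replicate 1 fell inside the range of the non-responders (log2 fold change 0.21, SE 0.20, adjusted p = 0.892), and leaving out non-responder replicate 2 gave 0.05 and its partner 0.39. Gar1, which the active particle needs, had 52.17 and 35.25 against 52.99 and 50.99 CPM, and its log2 fold change of 0.25 (SE 0.21) was -0.005 without non-responder replicate 2 and 0.56 without its partner. Of 11 other snoRNP proteins and assembly factors 11 were higher but by less, at a median of 0.13. Only 3 of them (27.3%) were wholly above, against 18.8% of all tested genes. The one of smallest p was the helicase gene Ruvbl2, with 92.8 and 110 against 113 and 138 CPM (log2 fold change 0.31, adjusted p = 0.836).

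Small subunit factors included the gene of smallest p among the 34. Of 9 genes 8 were higher, at a median of 0.24, and 7 were wholly above in responders. Of all tested genes 48.9% were higher and 18.8% wholly above. Rrp9, a protein that binds the U3 snoRNA of the processome (chr9:106475963-106485424), had 23.5 and 29.6 CPM among non-responders and 39.2 and 47.0 CPM among responders. The groups were apart by more than the spread within either, at 1.62-fold (log2 fold change 0.70, SE 0.20, adjusted p = 0.631). Its log2 fold change was between 0.54 and 0.87 with any 1 library left out, and the fit without non-responder replicate 2 called it (adjusted p = 0.038), as it did 2.44% of all genes tested. Rrp12, an export factor, followed with 45.1 and 49.7 against 61.5 and 67.2 CPM (log2 fold change 0.44, SE 0.17, adjusted p = 0.749).

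Nat10, the RNA cytidine acetyltransferase, had a log2 fold change of 0.36, the processome proteins Heatr1 of 0.28, Utp20 of 0.15 and Wdr75 of 0.08, and Tsr1, which acts late in small subunit maturation, of 0.24, all with responder libraries wholly above. Without non-responder replicate 2 the log2 fold change was 0.115 for Tsr1, 0.09 for Utp20 and 0.01 for Wdr75. Without its partner it was 0.37 for Tsr1, 0.22 for Utp20 and 0.15 for Wdr75, and without responder replicate 1 it was 0.08 for Utp20. Wdr43, a processome subunit that also associates with transcription of ribosomal DNA, had 250 and 169 against 230 and 224 CPM. The 2 non-responder libraries bracketed both responders (log2 fold change 0.11, SE 0.23, adjusted p = 0.951), and the value was 0.43 without non-responder replicate 1 and -0.14 without replicate 2. Nop14, a processome protein, had 146 and 88.2 against 118 and 113 CPM, again bracketed. Its log2 fold change of -0.02 (SE 0.25, adjusted p = 0.994) was 0.39 without non-responder replicate 1, -0.33 without its partner and 0.01 without responder replicate 2.

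Further small subunit factors went the same way by smaller amounts: of 46 listed, 45 were tested and 38 were higher, at a median of 0.20. Responder libraries were wholly above in 24 (53.3%, against 18.8% of all tested genes) and wholly below in 0 (17.7% of all). The one of smallest p was Noc4l, a processome component, with 37.8 and 44.9 against 54.8 and 62.8 CPM (log2 fold change 0.51, SE 0.18, adjusted p = 0.744).

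Large subunit factors had the highest median of the 6 roles, 0.38. Of the 9 genes 9 were higher and 8 wholly above, against 48.9% and 18.8% of all tested genes. Wdr12, a WD-repeat protein of the PeBoW complex that large subunit maturation requires, had 27.0 and 30.5 CPM among non-responders and 42.8 and 38.9 CPM among responders (log2 fold change 0.51, SE 0.17, adjusted p = 0.731). Its complex partners were higher too. Bop1 had 51.8 and 65.6 against 75.5 and 81.6 CPM (log2 fold change 0.42, SE 0.18, and 0.26 without non-responder replicate 1) and Pes1 81.2 and 78.4 against 95.3 and 89.1 CPM (log2 fold change 0.21, SE 0.16). The 3 genes of this complex therefore had responder libraries wholly above, though by unequal amounts, and none of them passed the test (adjusted p = 0.796 for Bop1 and 0.869 for Pes1).

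Nop16, a nucleolar protein of the large subunit pathway, had 34.8 and 35.8 against 48.8 and 47.2 CPM, and Rrs1, which with its partner brings the small 5S particle into the large subunit, had 48.2 and 48.0 against 61.8 and 65.4 CPM. In both genes the replicates of a group lay close together, with log2 fold changes of 0.44 (SE 0.16) and 0.40 (SE 0.16) and an adjusted p of 0.746 and 0.766. Nop2, a methyltransferase of ribosomal RNA and the gene with the upstream E-box shown above, had 88.7 and 67.4 against 100.2 and 103 CPM (log2 fold change 0.38, SE 0.19). It was 0.20 without non-responder replicate 2 and 0.60 without replicate 1. Nip7, which acts late in the nucleolus, had a log2 fold change of 0.32.

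Ftsj3, another methyltransferase and the most counted large subunit gene, had 239 and 186 against 240 and 246 CPM. Non-responder replicate 1 equalled responder replicate 1 to within 1 CPM (log2 fold change 0.19, SE 0.20, adjusted p = 0.903), and leaving out non-responder replicate 2 gave 0.02 and its partner 0.39. Rrp1b, a nucleolar protein that binds early large subunit particles, had 55.1 and 40.8 against 54.3 and 56.7 CPM (log2 fold change 0.21), and 0.01 without non-responder replicate 2 and 0.45 without its partner. Of 50 further large subunit factors, all tested, 45 were higher at a median of 0.21. Responder libraries were wholly above in 27 (54.0%, against 18.8% of all tested genes) and wholly below in 0 (17.7% of all). The one of smallest p was Ccdc86, with 42.8 and 46.7 against 57.2 and 62.8 CPM (log2 fold change 0.42, SE 0.17, adjusted p = 0.765).

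The 6 multifunctional nucleolar proteins all had positive log2 fold changes, at a median of 0.29. Per length, Npm1 stood at a mean of 337 RPKM and Ncl at 184 RPKM, ahead of Nhp2 with 100.1, Mybbp1a with 92.1 and Ddx21 with 78.2 RPKM. Fbl and Wdr12 (2.91 RPKM) were lowest; the length is that of all annotated exons, which for Wdr12 comes to 11955 bases. The per-library ranges of Npm1 (285 to 404 RPKM) and Ncl (128 to 221 RPKM) did not meet, nor did that of Ncl meet the range of Nhp2 (78.8 to 126 RPKM), while those of Nhp2, Mybbp1a (79.7 to 102 RPKM) and Ddx21 (65.5 to 88.2 RPKM) overlapped.

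Nolc1, a chaperone of snoRNPs, was the gene of smallest p in this role. It had 286 and 213 CPM among non-responders and 312 and 339 CPM among responders (log2 fold change 0.38, SE 0.21, adjusted p = 0.824). Both responders were above, but as ratios the non-responder libraries were 1.341-fold apart, beside 1.305-fold between the groups. The log2 fold change was 0.19 without non-responder replicate 2 and 0.61 without replicate 1. Ncl, nucleolin, a histone chaperone and RNA-binding protein of the nucleolus, had 2250 and 1304 against 2062 and 1901 CPM. The 2 non-responder libraries bracketed both responders, 1.73-fold apart, and its log2 fold change of 0.16 (SE 0.30, adjusted p = 0.947) was 0.61 without non-responder replicate 1 and -0.18 without replicate 2. Without responder replicate 1 it was 0.09.

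Npm1, the nucleolar chaperone nucleophosmin, had 814 and 759 against 938 and 1076 CPM (log2 fold change 0.36, SE 0.21). Mybbp1a, a nucleolar MYB-binding protein, had 493 and 462 against 592 and 591 CPM (log2 fold change 0.31, SE 0.19). Both were wholly higher in responders. Gnl3, the GTPase nucleostemin, had a log2 fold change of 0.27 and the helicase gene Ddx21 of 0.21. Without non-responder replicate 2 these were 0.143 and 0.075, and without its partner 0.42 and 0.36. Gnl3 was at 0.17 without responder replicate 2, and Ddx21 at 0.13 without responder replicate 1. Ddx21 had 412 and 339 against 457 and 412 CPM, with responder replicate 2 level with non-responder replicate 1.

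**Figure D2:**
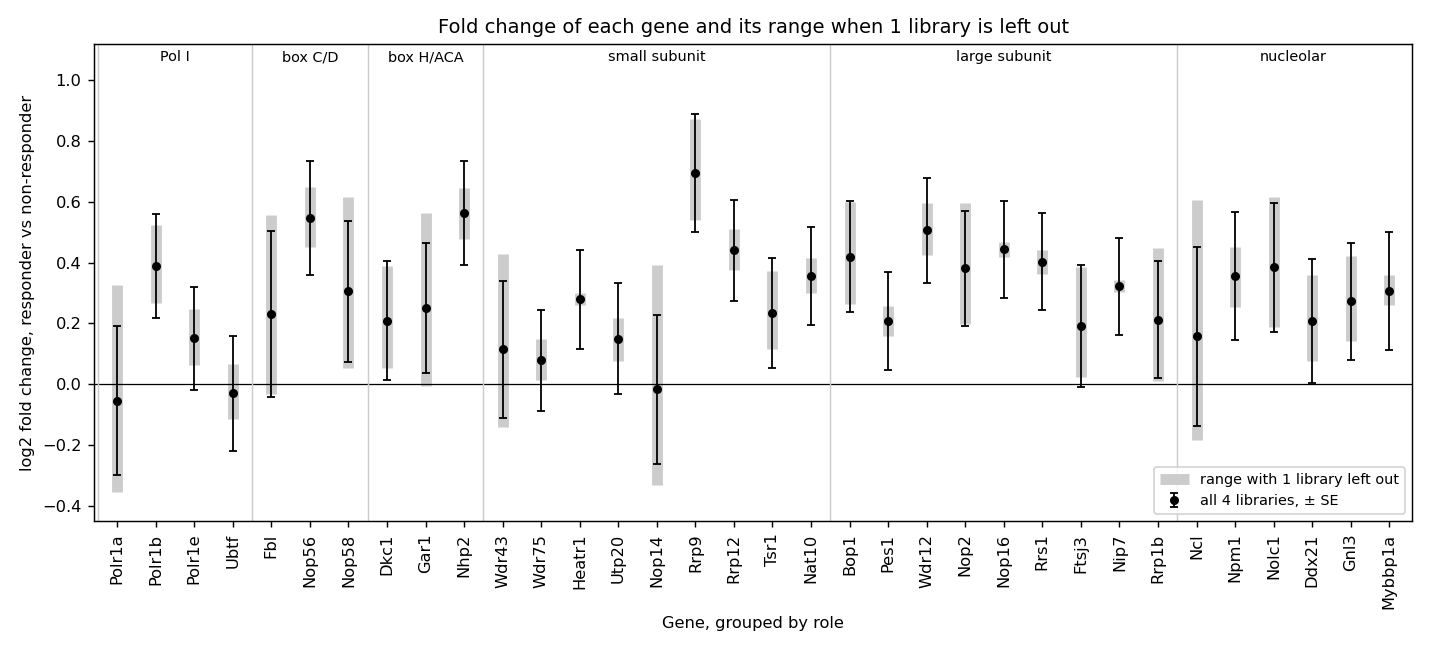
log2 fold change of each gene, responder relative to non-responder; points are the fit to all 4 libraries with bars of ± 1 SE, and grey bands span the 4 fits with 1 library left out. Rrp9, Nhp2, Nop56, Wdr12 and Nop16 keep bands above 0.4, while the bands of Polr1a, Ubtf, Fbl, Gar1, Wdr43, Nop14 and Ncl cross 0.

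Within groups, the ratio of replicate 1 to replicate 2 ran from 0.790 to 1.73 among non-responders, with a median of 1.13 and 26 of 34 genes higher in replicate 1, and from 0.834 to 1.16 among responders, with a median of 0.987. For all genes tested the medians were 0.980 and 0.995. In all 10 genes whose groups overlapped (Polr1a, Ubtf, Fbl, Dkc1, Gar1, Wdr43, Nop14, Rrp1b, Ncl and Ddx21), non-responder replicate 2 was the lowest library. It was lowest in 26 of the 34 genes, non-responder replicate 1 in the other 8, and a responder library in 0. The highest value came from responder replicate 2 in 18 genes, from responder replicate 1 in 10 and from non-responder replicate 1 in 6.

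**Figure D3:**
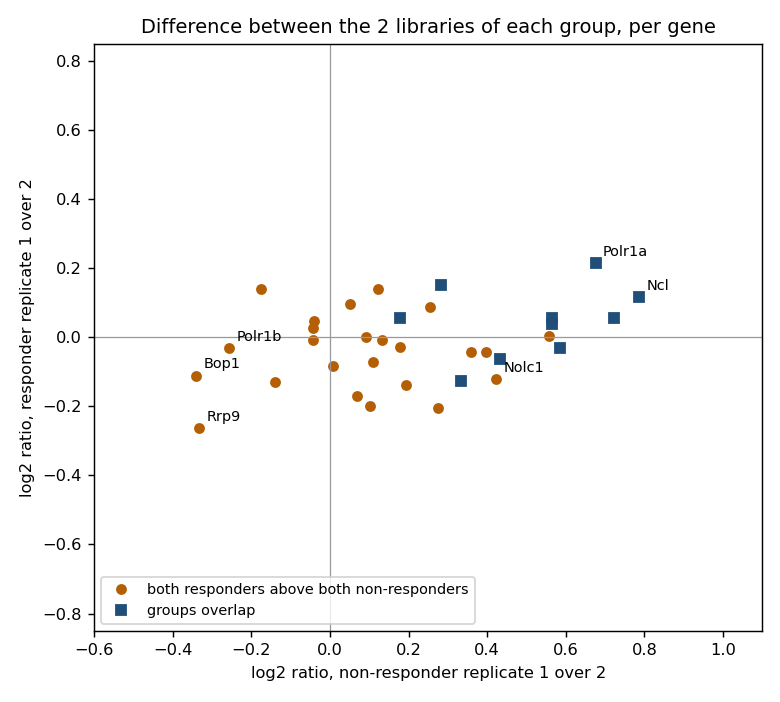
For each of the 34 genes, the log2 ratio of replicate 1 to replicate 2 among non-responders (horizontal) and among responders (vertical). Genes whose groups overlap (squares) lie to the right, where non-responder replicate 2 is low, with Ncl at a ratio of 1.73; the vertical spread stays between ratios of 0.834 and 1.16.

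Summed over the 34 genes, the level was 7675 and 5917 CPM in non-responder replicates 1 and 2 and 8031 and 8030.0 CPM in the responder replicates. Leaving out Ncl and Npm1, it was 4611 and 3855 against 5032 and 5052 CPM. The low library, non-responder replicate 2, also had the highest sum of each marker list, that of colon epithelium included (3.45 CPM). Per the labels, CD45+ immune cells had been sorted away from the cancer cells. Whether the marker transcripts came from the cancer cells or from other cells was not tested. The sum of 12 leukocyte markers was 65.6 and 160 CPM among non-responders and 22.6 and 65.1 CPM among responders, and Tyrobp was at 0 in responder replicate 1. Of these 12 markers 12 had negative log2 fold changes, as did 10 of 10 macrophage markers, whose sum was 84.4 and 229 against 14.8 and 84.5 CPM, with none at 0. T and NK cell markers summed to 0.446 to 3.23 CPM, with up to 5 of 8 at 0 in a library. Endothelial markers summed to 25.7 and 29.5 against 14.4 and 18.0 CPM. Pecam1 made up most of this sum, with 17.8 and 25.5 against 6.35 and 11.6 CPM. Of the 3 endothelial markers tested, 2 had positive log2 fold changes and 1 a negative one. Cdh5 was lowest in non-responder replicate 2, with 5.51 and 2.15 against 5.95 and 3.51 CPM.

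The sum of 12 fibroblast markers, most of it from Col3a1, was 12500 and 18300 against 11100 and 9600 CPM. Of the 11 of them tested 9 were lower in responders and 2 higher. Responder libraries were wholly below in 8 of the 11, against 17.7% of all tested genes. By edgeR 7 were lower at an unadjusted p under 0.05, against 3.63% of all tested genes, and 0 were called. Col3a1 alone had 7598 and 13391 against 6897 and 5792 CPM. Other markers of this list were highest in non-responder replicate 1, and these too were lower in both responder libraries. Pdgfra had 635 and 536 against 424 and 293 CPM. Pdgfrb had 220 and 198 against 107 and 78.3 CPM, and Postn 127 and 57.7 against 16.8 and 19.1 CPM. Col1a2 was highest in responder replicate 1, at 126 CPM, and Col6a3 lowest in non-responder replicate 2, at 2052 CPM. The part of these marker transcripts in the difference of the ribosome biogenesis genes was not tested. Without non-responder replicate 2 the median log2 fold change of the 34 was 0.16, beside 0.015 for all genes. In that fit 27 of 34 were higher and 24 wholly above, against 51.5% and 40.6% of all genes. Without non-responder replicate 1 the median of the 34 was 0.40, with 34 of 34 higher, against 50.3% of all genes.

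**Figure D4:**
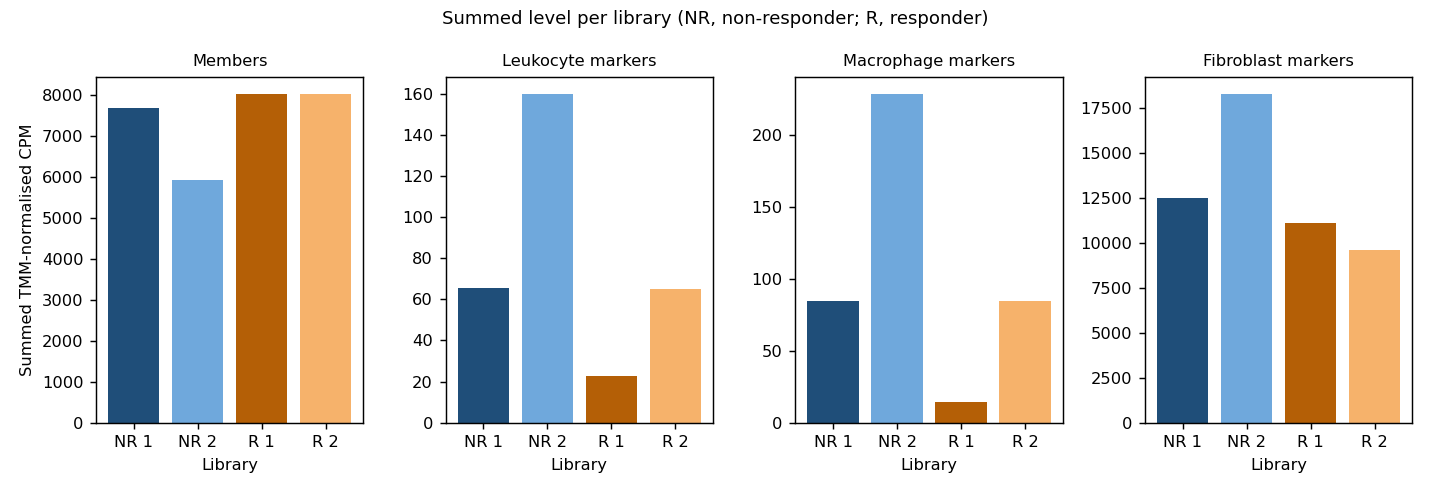
Summed TMM-normalised CPM per library of the 34 genes (Members) and of 12 leukocyte, 10 macrophage and 12 fibroblast markers; each bar is 1 library and each panel has its own axis from 0. Non-responder replicate 2 has the lowest sum for the 34 genes (5917 CPM) and the highest for each marker list.

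The wider pathway followed, with smaller differences. Of 118 other genes of RNA polymerase I, snoRNPs and both subunit pathways, 117 were tested. Of these 103 were higher and 14 lower, at a median of 0.19, and 0 were called. Responder libraries were wholly above in 59 (50.4%, against 18.8% of all tested genes) and wholly below in 1 (17.7% of all). RNA exosome genes, which trim the precursor, had 10 of 13 higher at a median of 0.17; Exosc2 had 35.3 and 35.8 against 47.1 and 53.3 CPM (log2 fold change 0.50, SE 0.17, adjusted p = 0.728). These lists, like the 34 genes, were chosen with earlier results of these data known.

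The other RNA polymerases had medians of about the size seen for polymerase I. Core polymerase II subunits had 6 of 8 higher at a median of 0.10, and Polr2g had 51.7 and 63.4 against 70.1 and 83.7 CPM (log2 fold change 0.42, adjusted p = 0.796). The 5 subunits shared between polymerases had 5 higher at a median of 0.10, with Polr2f at 27.2 and 36.7 against 38.0 and 52.2 CPM (log2 fold change 0.50, adjusted p = 0.796). Polymerase III genes, which serve 5S and transfer RNA, had 10 of 13 higher at a median of 0.11. The one of smallest p went the other way: Polr3gl, a subunit whose paralog Polr3g is known from stem cells and tumor cells, had 15.8 and 10.5 against 8.82 and 7.90 CPM, 1.58-fold lower (log2 fold change -0.66, SE 0.27, adjusted p = 0.790).

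Cytosolic ribosomal protein genes, which encode the ribosome's own proteins, were higher in 63 of 78 tested of 79 listed, at a median of 0.27. Only 24 of them (30.8%) were wholly above in responders, against 18.8% of all tested genes. For the ribosome biogenesis genes it was 24 of 34 (70.6%), and the difference between these 2 lists was not tested. Rpl13a had 31.3 and 28.9 against 40.5 and 44.2 CPM (log2 fold change 0.49, SE 0.17, adjusted p = 0.731). Many of these genes have near-identical pseudogenes, so their levels are uncertain.

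**Figure D5:**
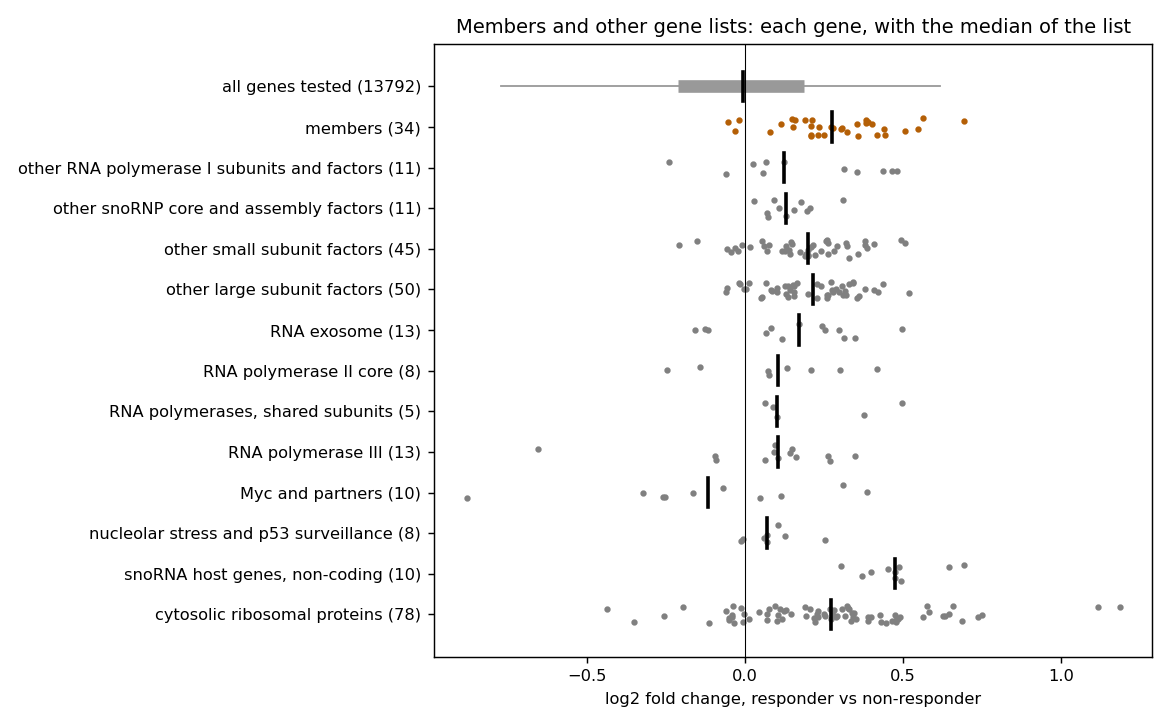
log2 fold change, responder relative to non-responder, of each tested gene in the 34-gene set (orange) and in 12 other lists (grey), with the number tested in brackets; black bars are medians, and for all 13792 genes the thick and thin bars span the middle 50% and 90%. The median of the 34 genes is 0.28, that of Myc and its partners -0.12 and that of the non-coding snoRNA hosts 0.48.

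Among MYC and its network partners, Myc had 173 and 121 CPM among non-responders and 199 and 185 CPM among responders, with non-responder replicate 2 lowest, as in 26 of the 34 genes (log2 fold change 0.39, SE 0.22, adjusted p = 0.828). Of the 10 genes of this list 4 were higher and 6 lower, at a median of -0.12. Mxd4, which encodes an antagonist of MYC that competes for MAX, had 25.8 and 41.4 against 19.2 and 17.3 CPM. It was wholly lower in responders, 1.84-fold (log2 fold change -0.88, SE 0.25, adjusted p = 0.631), and highest in non-responder replicate 2. Genes of the p53 response to a disturbed nucleolus had 6 of 8 higher at a median of 0.07, and Trp53 had 98.4 and 105 against 110 and 133 CPM (log2 fold change 0.25, SE 0.18, adjusted p = 0.858).

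The 6 genes with an E-box in the promoter window had log2 fold changes of 0.11 (Wdr43) to 0.38 (Nop2). Rrp9, Nhp2, Wdr12 and Nop56, the 4 of smallest p, had no CACGTG in the windows searched. The Rrp9 window (chr9:106477059-106477358) lies inside the counted gene, which begins at 106475963. Rrp12 and Rrs1 were among the genes without a matched promoter. Whether MYC has a part in these differences was not tested.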

How the data were processed

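The authors deposited 1 table of raw counts per library, not pooled and not normalized. Reads were aligned with STAR to mm10 (GRCm38), per the submitters' processing notes, and counted per gene with featureCounts 1.6.1 with strand setting 2 on Ensembl release 91, without multi-mapping reads, per the file headers; the exon length of each gene is another deposited column. The version of STAR is not given in the sources used here. Groups and replicate numbers come from the sample titles.

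Of 53379 identifiers, 53274 matched a symbol. Genes were filtered with filterByExpr (minimum count 10), scaled by TMM (factors 0.952 to 1.036) and fitted with edgeR 4.0.16 in R 4.3.3: a robust quasi-likelihood test on all 4 libraries, group as the only term, Benjamini-Hochberg adjustment over 13792 genes, threshold 0.05 (common biological coefficient of variation 0.216). The fit was tested on simulated data. SE was derived from the fold change and its F statistic (|log2 fold change| over the root of F). CPM and RPKM are TMM-scaled. "Wholly above" means that both responder CPM values exceed both non-responder values. Leaving out 1 library leaves a lone one, whose spread is then taken from the other group. Alternatives were RLE, upper-quartile and no factors, DESeq2 1.42.0, limma-voom (limma 3.58.1), 2 other filters, no mitochondrially encoded genes, a replicate block and each library left out. Members and lists were chosen with earlier results of these data known, so no list was tested. In each role, the member of smallest p, the most counted and any with a negative fold change are given in full, and in each other list the gene of smallest p above a mean of 5 CPM, with Myc.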

Additional observations from a re-analysis of the deposited data

How the results depend on the processing

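The median log2 fold change of the 34 genes was 0.28 and stayed positive in all 13 alternative fits; with a library left out it ran from 0.163 (without non-responder replicate 2) to 0.401 (without non-responder replicate 1). The number of genes called among all tested was 0 and became 62 with DESeq2, 212 with no low-count filter, 32 with the replicate block, 856 at an unadjusted p, and 16 to 336 with a library left out; the cause was not tested. Of the 34 genes, 7 passed at an unadjusted p, and at an adjusted p 1 was called in these fits, Rrp9 without non-responder replicate 2. Samples with the same number deviated together (r = 0.388 across genes, which are not independent replicates), but 2 pairs do not show a pairing. Under the block the median was 0.278, with 32 of 34 higher, against 50.2% of all genes tested. Direction turned for Nop14 with total counts alone (0.026), limma-voom (0.025) and the block (0.026), and for Ubtf with total counts alone (0.003). With a library left out, direction turned in 1 or more fits for 7 genes, whose values ran from -0.333 to 0.392 for Nop14, -0.116 to 0.066 for Ubtf, -0.354 to 0.326 for Polr1a, -0.032 to 0.556 for Fbl, -0.005 to 0.564 for Gar1, -0.183 to 0.607 for Ncl and -0.14 to 0.428 for Wdr43; the lowest came without non-responder replicate 2 and the highest without non-responder replicate 1. The other 27 genes were higher in every fit listed here. With RLE, upper-quartile or no factors, 21, 26 and 29 of the 34 genes were wholly above. Of all genes tested, 18.5%, 18.2% and 19.7% were wholly above in these fits. Reads and not molecules were counted, and with 2 libraries per group an SE of 0.16 to 0.30 limits what can be told apart.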

Other observations

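Non-coding host genes of snoRNAs, whose spliced RNA is not translated into a known protein, were higher in responder libraries in 10 of 10 tested of 12 listed. Their median log2 fold change was 0.48, with 7 wholly above (70.0%, against 18.8% of all tested genes) and 0 called. Snhg3 had 32.5 and 34.5 CPM among non-responders and 47.4 and 57.4 CPM among responders (log2 fold change 0.65, SE 0.18, edgeR adjusted p = 0.631). Snhg1 had 86.9 and 99.1 against 119 and 183 CPM, and Gas5 318 and 260 against 347 and 458 CPM. Both were named after their values were seen. In each of these 3 genes responder replicate 2 was the highest library. Unlike most of the 34 ribosome biogenesis genes, Snhg1 and Snhg3 were lower in non-responder replicate 1 than in replicate 2.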
